A study of Homo sapiens with 9 samples.

Results

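The genes described here are 8 surface molecules through which leukocytes hold on to other cells: the intercellular adhesion molecules ICAM1, ICAM2, ICAM3, ICAM4 and ICAM5, the vascular cell adhesion molecule VCAM1, and the immunoglobulin-fold proteins CD47 and CD58. They were chosen by symbol and are 8 of the 62710 gene identifiers in the count table. RNA was sequenced from HT-29 cells, a human colorectal adenocarcinoma line, in 3 non-stimulated libraries, 3 libraries from cells given flagellin and 3 from cells given ADP-heptose. Both stimuli were used at 500 ng/mL for 2.5 h. Flagellin is the bacterial flagellum protein sensed by the surface receptor TLR5, and ADP-heptose is a bacterial sugar nucleotide sensed in the cytosol by the kinase ALPK1. All groups are the same unmodified line, so they model 1 tumor-derived epithelium and not normal gut lining, and the libraries of a group were described as coming from separate experiments.

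ICAM and VCAM proteins are ligands for integrins: ICAM1 is held by the leukocyte integrins LFA-1 and Mac-1, and VCAM1 by the α4 integrins of lymphocytes, monocytes and eosinophils. ICAM1 and VCAM1 are textbook targets of NF-κB in cells given TNF or interleukin-1, and VCAM1 is known above all from activated endothelium. CD58 is the ligand of CD2 on T and NK cells, and CD47 signals to SIRPα on phagocytes as a brake on engulfment and also binds integrins and thrombospondin-1.

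The DNA just upstream of the RefSeq start of 4 of the genes is shown because ICAM1 and VCAM1, which rose most, are textbook NF-κB targets. ICAM5 and CD47 serve beside them as members that rose little or did not pass. Each line gives the 250 bases before the RefSeq start of the gene (GRCh38.p14), 5′ to 3′ along its own strand, with every match to a searched motif in capitals. The ICAM1 and CD47 windows lie inside the longer GENCODE spans given for these genes below. For these genes, DNA upstream of the GENCODE start was not searched. ICAM1 (chr19:10270870-10271119, plus strand) and VCAM1 (chr1:100719492-100719741, plus strand) rose under both stimuli, ICAM5 (chr19:10289702-10289951, plus strand) under ADP-heptose, and CD47 (chr3:108091032-108091281, minus strand) did not pass the test in any comparison.
ICAM1: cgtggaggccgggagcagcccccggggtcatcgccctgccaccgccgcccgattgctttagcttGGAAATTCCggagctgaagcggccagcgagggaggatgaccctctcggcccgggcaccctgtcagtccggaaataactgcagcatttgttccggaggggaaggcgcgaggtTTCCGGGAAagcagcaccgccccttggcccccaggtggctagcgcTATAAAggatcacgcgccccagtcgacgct
VCAM1: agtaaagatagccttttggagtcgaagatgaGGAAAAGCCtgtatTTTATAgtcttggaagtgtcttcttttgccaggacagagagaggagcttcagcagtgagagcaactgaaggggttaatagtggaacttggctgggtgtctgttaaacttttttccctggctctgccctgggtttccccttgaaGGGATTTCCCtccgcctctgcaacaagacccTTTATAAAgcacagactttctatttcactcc
ICAM5: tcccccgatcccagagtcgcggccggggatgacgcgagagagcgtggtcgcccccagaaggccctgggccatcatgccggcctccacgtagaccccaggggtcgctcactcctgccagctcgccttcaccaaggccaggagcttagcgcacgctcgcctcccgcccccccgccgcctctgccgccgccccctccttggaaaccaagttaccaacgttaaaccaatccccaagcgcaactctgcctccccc
CD47: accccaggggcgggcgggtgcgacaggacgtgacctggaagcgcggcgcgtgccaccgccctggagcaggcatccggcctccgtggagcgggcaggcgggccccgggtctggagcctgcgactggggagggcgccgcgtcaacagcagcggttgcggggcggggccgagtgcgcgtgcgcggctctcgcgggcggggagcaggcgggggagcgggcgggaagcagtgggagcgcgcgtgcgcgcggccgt

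A set of 5 letter strings were searched on both strands in windows that also took in the 50 bases after the start, and overlapping matches were kept: the NF-κB consensus by name, GGNNNTTCC, the STAT element TTCCNGGAA, the AP-1 element TGANTCA and TATAAA. In ICAM1, GGNNNTTCC was matched at -186 to -178 by GGAAATTCC, on both strands, TTCCNGGAA at -75 to -67, and TATAAA at -30 to -25, counted from the start base as 0. In VCAM1, the NF-κB consensus was matched at -62 to -53 by GGGATTTCCC, which holds a GGNNNTTCC match as well, and TATAAA at -29 to -24. The minus strand of the VCAM1 window held a further GGNNNTTCC match at -219 to -211 and TATAAA matches at -205 to -200 and -31 to -26. These 2 windows were alone among those of the members in holding TATAAA. Neither the ICAM5 nor the CD47 window held any of the strings, and the CD58 window held GGNNNTTCC once, at -81 to -73 on the minus strand. Of the genes without a testable level, ICAM4 had an NF-κB consensus match at -57 to -48, and of the 3 ICAM3 windows 1 had a consensus match at -56 to -47 and 1 a GGNNNTTCC match at -7 to 1. ICAM2 was not matched in the promoter table. Among 35116 RefSeq promoters of the same length, 11.3% held the NF-κB consensus, 20.1% GGNNNTTCC, 1.15% TTCCNGGAA, 7.71% TGANTCA and 11.5% TATAAA. A match describes letters and does not show a bound site.

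Libraries held 30770448 to 38304035 counts in the non-stimulated and flagellin groups and 50054773 to 58272772 under ADP-heptose, so a count of 0 in 1 library allows a level of up to 0.0515 to 0.0975 CPM (counts per 1000000 counts), counting error only. ADP-heptose replicate 3 stood apart: over 11040 genes its log2 differences from replicates 1 and 2 had SDs of 0.36 and 0.37, against 0.11 to 0.16 within every other pair of one group. Results without it are given beside the members and lists where they differ. Levels below are CPM after TMM scaling of the library totals, and a gene was called changed at an edgeR quasi-likelihood adjusted p below 0.05 together with a change of at least 2-fold. Of the cell type markers, 10 of 11 colon epithelial genes reached 1 CPM in at least 1 library. The 11 summed to 8680 to 9280 CPM in the non-stimulated and flagellin libraries and 9520 to 13400 CPM under ADP-heptose. The upper end was ADP-heptose replicate 3, where KRT8 had 6530 CPM, against 4490 and 4520 CPM in replicates 1 and 2. CDH1 was lower there, at 120 against 151 and 154 CPM. The CDX2 mean was 1.14 CPM at rest and 0.595 CPM under ADP-heptose. Endothelial markers, which matter for VCAM1, reached 1 CPM for 0 of 8 genes and summed to 0.312 to 1.17 CPM, with CDH5 and ROBO4 at 0 in every library. Of 9 leukocyte markers 1 reached 1 CPM, the sum was 0.832 to 1.73 CPM, and CD3E, CD2, MS4A1 and FCGR3A were at 0. Of 6 fibroblast markers 1 reached 1 CPM, COL1A2, DCN and LUM were at 0, and the sum was 12.5 to 16.1 CPM in the non-stimulated and flagellin libraries and 16.9 to 19.1 CPM under ADP-heptose; the part of these shifts in the results was not tested. In bulk RNA, a change in the number of expressing cells and a change in RNA per cell cannot be told apart.

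Of the 8 genes, ICAM1, VCAM1, ICAM5, CD47 and CD58 passed the filter on low counts and were tested among 17412 genes, while ICAM2, ICAM3 and ICAM4 did not. Under ADP-heptose ICAM1, VCAM1 and ICAM5 were called higher than in non-stimulated cells, a call made for 2.89% of all genes tested. Under flagellin ICAM1 and VCAM1 were called higher, a call made for 0.212% of genes. Between the stimuli ICAM1 and VCAM1 were called higher under ADP-heptose, against 2.06% of genes, and ICAM5 passed the adjusted p but not 2-fold. Without the fold threshold, 7.48%, 0.368% and 5.4% of genes were higher in the ADP-heptose, flagellin and ADP-heptose against flagellin comparisons, and 4.42%, 0.0115% and 2.76% were lower. By edgeR 0 members were lower in any of the 3, also at an unadjusted p below 0.05 and by DESeq2. All 3 comparisons rest on the same 9 libraries, so they are not independent of one another.

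ICAM1 (ENSG00000090339, chr19:10270835-10286615, plus strand, GRCh38), the ligand of LFA-1 and Mac-1, was present but low at rest. Non-stimulated libraries held 176, 157 and 197 counts, flagellin libraries 1237, 1042 and 819, and ADP-heptose libraries 15029, 17077 and 12465. Scaled, these were 4.5, 4.37 and 5.29 CPM at rest, 31.7, 29.6 and 25.9 CPM under flagellin and 311, 303 and 275 CPM under ADP-heptose. The 3 groups did not overlap, with flagellin between rest and ADP-heptose. The level rose 62.7-fold under ADP-heptose (log2 fold change 5.97 ± 0.12 SE, edgeR adjusted p = 6.2e-12) and 6.16-fold under flagellin (2.62 ± 0.11 SE, adjusted p = 6.6e-08). It was 10.2-fold higher under ADP-heptose than under flagellin (3.35 ± 0.10 SE, adjusted p = 5.8e-10).

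VCAM1 (ENSG00000162692, chr1:100719742-100739045, plus strand), the α4 integrin ligand, was close to absent at rest. Its counts were 0, 0 and 4 in non-stimulated libraries, 34, 65 and 34 under flagellin and 865, 954 and 745 under ADP-heptose. The levels were 0, 0 and 0.107 CPM at rest, 0.872, 1.85 and 1.08 CPM under flagellin and 17.9, 16.9 and 16.4 CPM under ADP-heptose. Again no library of one group reached into another. Since 2 of 3 non-stimulated libraries were at 0, the size of the rise is uncertain: the ratio of summed scaled counts was 479 for ADP-heptose, with a 95% counting interval of 187 to 1760, and 35.3 for flagellin, with an interval of 13.5 to 131. The fitted log2 fold changes were 8.79 ± 0.43 SE (adjusted p = 3.3e-08) and 5.03 ± 0.60 SE (adjusted p = 0.00159). Without non-stimulated replicate 3, the only one with counts, the fit gave 12.46 and 8.71, values set by the prior count and not bounds. The comparison of the stimuli does not depend on the resting level, and there VCAM1 was 13.5-fold higher under ADP-heptose (3.76 ± 0.26 SE, adjusted p = 1.2e-06).

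**Figure D1:**
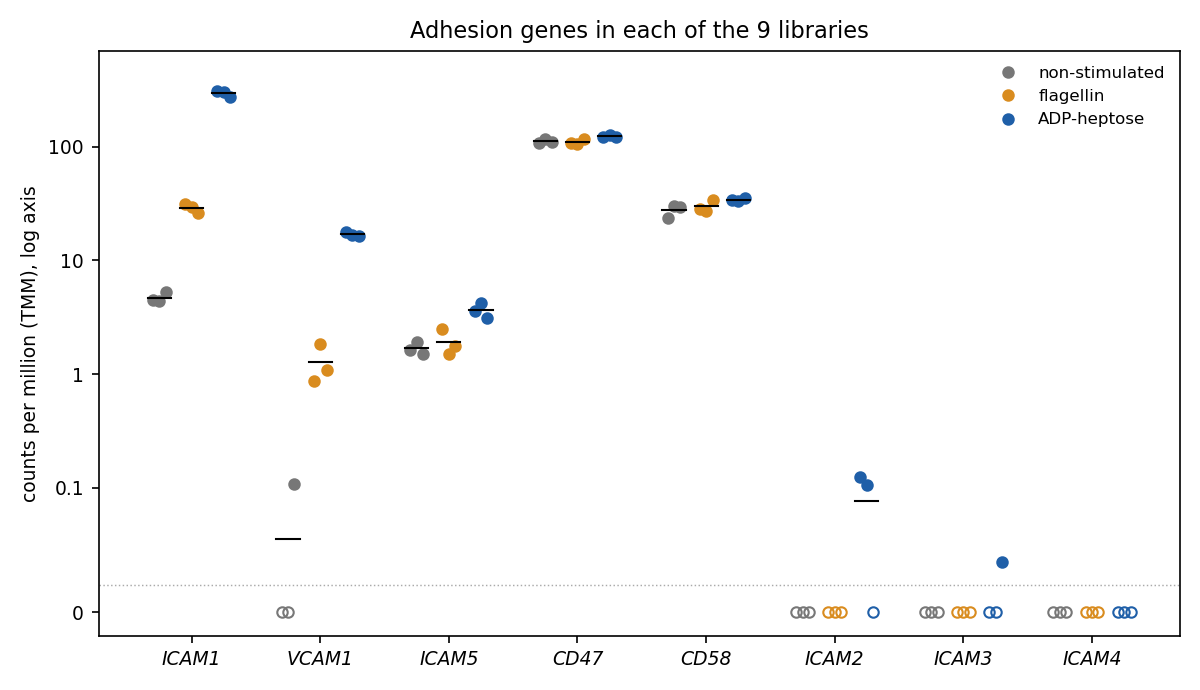
CPM of the 8 genes in each of the 9 libraries on a log axis, with open circles below the dotted line for libraries at 0 and a bar for each group mean above it. ICAM1 and VCAM1 step up from non-stimulated to flagellin to ADP-heptose with no overlap, while CD47 stays between 105 and 126 CPM.

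ICAM5 (ENSG00000105376, chr19:10289981-10296778, plus strand), known as telencephalin of brain neurons and also an LFA-1 ligand, lies a short way downstream of ICAM1 and moved far less. Its levels were 1.64, 1.92 and 1.5 CPM at rest, 2.51, 1.5 and 1.77 CPM under flagellin and 3.62, 4.22 and 3.09 CPM under ADP-heptose. The ADP-heptose libraries were above all others, while the flagellin and resting libraries overlapped. ICAM5 rose 2.16-fold under ADP-heptose (log2 fold change 1.11 ± 0.21 SE, adjusted p = 0.00451), with a 95% interval of 0.64 to 1.58 that reaches below 2-fold. The value was 0.98, just under 2-fold, when plain library totals replaced TMM and also without ADP-heptose replicate 2. Against flagellin it was 1.88-fold higher (0.91 ± 0.21 SE, adjusted p = 0.0185). This no longer passed the adjusted p without flagellin replicate 2 (0.76, adjusted p = 0.0992), flagellin replicate 3 (0.86, adjusted p = 0.0904) or ADP-heptose replicate 2 (0.79, adjusted p = 0.0726). Without flagellin replicate 1 or ADP-heptose replicate 3, ICAM5 passed both the adjusted p and 2-fold against flagellin. Under flagellin the log2 difference from rest was 0.20, with an interval of -0.29 to 0.70 (adjusted p = 1).

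CD47 (ENSG00000196776, chr3:108043094-108091862, minus strand), the ligand of SIRPα, was well expressed in every library. Its levels were 108, 117 and 110 CPM at rest, 108, 105 and 116 CPM under flagellin and 123, 126 and 123 CPM under ADP-heptose. The ADP-heptose libraries were the 3 highest, by a small margin. The fold change was 1.12, with a 95% interval of 1.01 to 1.23 (log2 0.16 ± 0.07 SE, adjusted p = 0.161), so CD47 did not pass the test and a doubling lay far outside the interval. Without ADP-heptose replicate 3 the difference was much the same, 0.17, and passed (adjusted p = 0.0213). Against flagellin the log2 difference was 0.18 (adjusted p = 0.131), and 0.20 without that library (adjusted p = 0.00643). Flagellin and resting cells overlapped, with a difference of -0.03 and an interval of -0.17 to 0.12.

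CD58 (ENSG00000116815, chr1:116514535-116571039, minus strand), the CD2 ligand, gave 23.8, 30.1 and 29.4 CPM at rest, 28.5, 27.5 and 34.3 CPM under flagellin and 33.8, 33.1 and 35.2 CPM under ADP-heptose. The ADP-heptose libraries were above all resting libraries and overlapped with the flagellin group. The fold change over rest was 1.23, with an interval of 1.04 to 1.44 (log2 0.29 ± 0.11 SE, adjusted p = 0.109). It was 0.27 without ADP-heptose replicate 3, where it passed (adjusted p = 0.0292). Neither flagellin against rest (0.12, adjusted p = 1) nor ADP-heptose against flagellin (0.18, adjusted p = 0.389) passed.

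Among all genes tested, groups that do not overlap with the first group higher were found for 15.4% in ADP-heptose against rest, 7.66% in flagellin against rest and 14.2% in ADP-heptose against flagellin. The members with such a pattern were all 5 tested in the first comparison, ICAM1 and VCAM1 in the second, and all tested but CD58 in the third. For CD47 and CD58 that order of libraries is therefore a common one and came without a call.

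**Figure D2:**
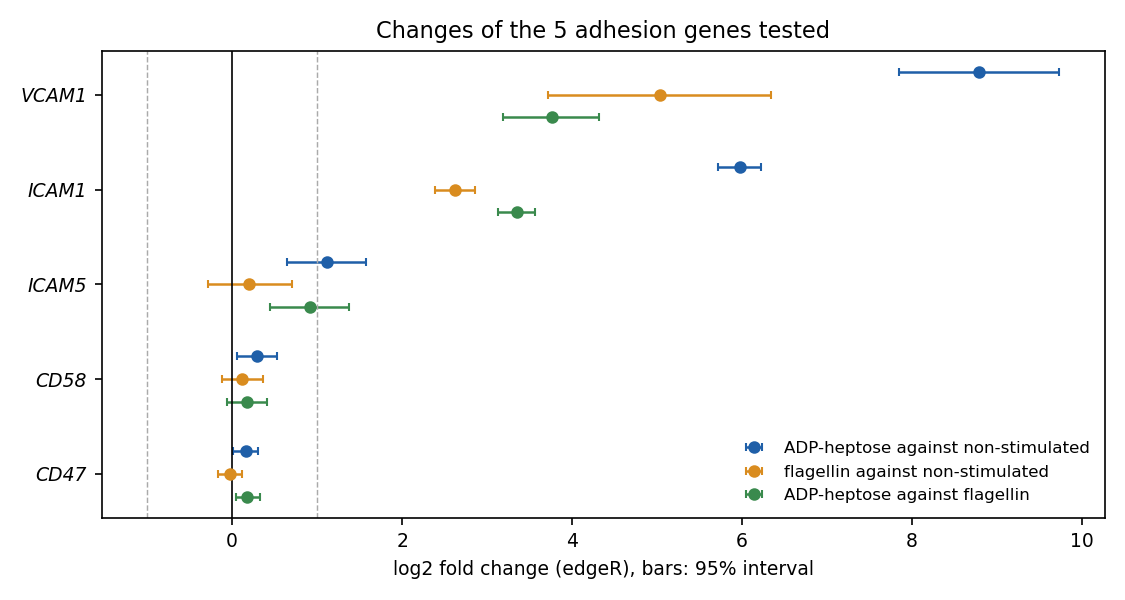
Log2 fold changes from the edgeR fit with 95% intervals for the 5 genes tested in the 3 comparisons; dashed lines mark 2-fold in either direction. The intervals of ICAM1 and VCAM1 lie wholly beyond 2-fold in every comparison, those of ICAM5 span the line at 1 in both comparisons with ADP-heptose and stay under it for flagellin, and those of CD47 and CD58 stay under it throughout.

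The remaining ICAM genes were at or near 0. ICAM2 (ENSG00000108622, chr17:64002594-64020634, minus strand), a constitutive LFA-1 ligand of endothelium and platelets, had 6, 6 and 0 counts in the ADP-heptose libraries and 0 in the other 6. Set against a limit of 3 counts for a group at 0, the summed 12 counts were 2.99-fold higher than at rest and 2.82-fold higher than under flagellin. These ratios give no error to the 12 counts and are not lower bounds. With 1 ADP-heptose library at 0 as well, ICAM2 was too low to test. When the filter was dropped, the ADP-heptose difference had an adjusted p of 0.244. ICAM3 (ENSG00000076662, chr19:10333776-10339823, minus strand), the ICAM of resting leukocytes, had 1 count in ADP-heptose replicate 3 and 0 elsewhere. ICAM4 (ENSG00000105371, chr19:10286967-10288522, plus strand), the Landsteiner-Wiener blood group protein of red cells, had 0 counts in all 9 libraries. For these genes the annotation limits what a count of 0 shows.

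In GENCODE release 29, every one of the 1427 exon bases of ICAM4 is also exon of the antisense transcript ICAM4-AS1 (ENSG00000267607, chr19:10285801-10289019, minus strand), a single exon of 3219 bases that also covers 815 exon bases, 22%, of the end of ICAM1. ICAM3 shares 71.2% of its exon bases with the antisense gene ENSG00000274425 and ICAM2 shares 26.8% with PRR29. ICAM5, VCAM1, CD47 and CD58 share none. A counter that sets aside reads on overlapping exons would leave ICAM4 with no countable base, and whether strand was used in counting is not given in the sources used here, so ICAM4 RNA and ICAM4-AS1 RNA cannot be told apart here.

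ICAM4-AS1 itself had 0 counts in all 3 non-stimulated libraries, 3, 0 and 3 under flagellin and 131, 124 and 130 under ADP-heptose. Set against a limit of 3 counts at rest, and with no error given to the 385 counts under ADP-heptose, the rise was 96-fold. Over flagellin it was 45.2-fold, with a counting interval of 20.6 to 124. The edgeR fit gave log2 fold changes of 9.73 (adjusted p = 1.4e-05) over rest and 5.44 (adjusted p = 5.1e-05) over flagellin. ICAM4-AS1 entered the test only through the ADP-heptose libraries, so these adjusted p-values are not independent of its rise. Its counts were 0.872%, 0.726% and 1.04% of those of ICAM1 in the 3 ADP-heptose libraries, and 0.194% over the flagellin group. At rest 0 counts beside 530 of ICAM1 allow up to 0.566% if each count is independent. Read pairs were sequenced, and whether both mates of a pair were counted is not given. If they were, the limit would be higher, so the ADP-heptose share is not shown to differ from that at rest. Of the exon of ICAM4-AS1, 977 bases lie outside both ICAM1 and ICAM4. Whether the counts are antisense RNA, ICAM4 RNA or ICAM1 RNA that runs past its end cannot be told apart in a gene-level table.

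The ICAM cluster on chromosome 19 gives a local comparison, since ICAM1, ICAM4 and ICAM5 lie head to tail, with 351 bases between ICAM1 and ICAM4 and 1458 between ICAM4 and ICAM5. Within 100 kb of the members there, 9 of 17 other annotated genes were tested. ICAM4-AS1, the sphingosine phosphate receptor gene S1PR2 (log2 fold change 0.87, adjusted p = 0.00737) and the Janus kinase gene TYK2 (0.53, adjusted p = 1.0e-04) passed the adjusted p in the higher direction under ADP-heptose, and 0 genes in the lower (0 at an unadjusted p below 0.05 and 0 by DESeq2). These 3 of 9 stand beside 7.48% of all genes tested. Among them, ICAM4-AS1 shares exon bases with ICAM1 and entered the test only through the ADP-heptose libraries. The mitochondrial ribosome gene MRPL4, directly upstream of ICAM1, had 0.16 (adjusted p = 0.447), and the RNA-binding protein gene RAVER1, next to ICAM3, had -0.06 (adjusted p = 0.75). The 5.97 of ICAM1 thus stood beside neighbors with values between -0.15 (PDE4A) and 0.95 (ZGLP1, adjusted p = 0.122), ICAM5 and ICAM4-AS1 aside. Under flagellin 0 of the 9 passed in edgeR and 0 in DESeq2, and 2, TYK2 and ICAM4-AS1, had an unadjusted p below 0.05.

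**Figure D3:**
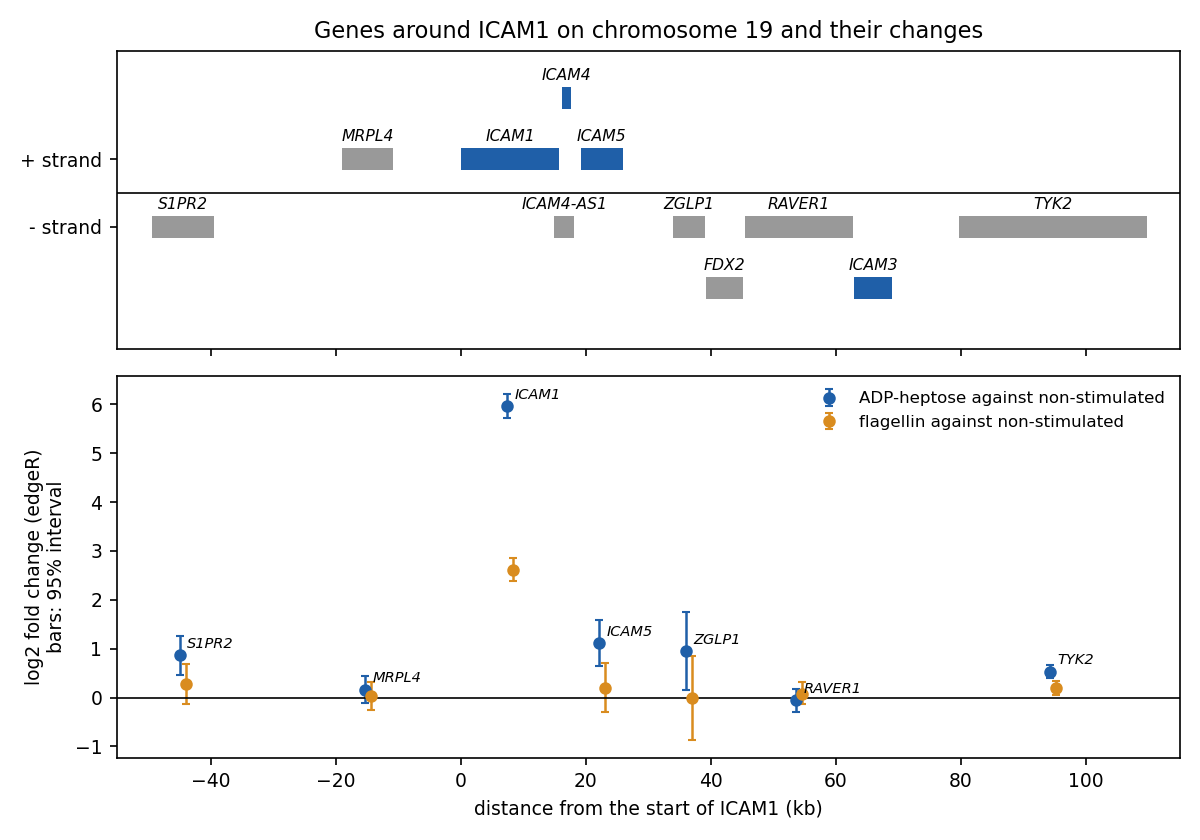
Upper panel, genes around ICAM1 drawn to scale by strand against the distance from the ICAM1 start in kb, with ICAM genes in blue. Lower panel, edgeR log2 fold changes with 95% intervals at each gene's midpoint for ADP-heptose and flagellin against non-stimulated cells, without ICAM4-AS1, whose resting count is 0; ICAM1 stands at 5.97 and 2.62, and its neighbor MRPL4 near 0.

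Levels of different genes were compared per kilobase of merged exon. At rest the order was CD58 (15.6 ± 1.96 CPM per kb, SD, n = 3), CD47 (13.5 ± 0.583), ICAM1 (1.27 ± 0.133), ICAM5 (0.432 ± 0.0547) and VCAM1 (0.00591 ± 0.0102). CD58 and CD47 overlapped at rest, from 13.3 to 16.9 and from 13.1 to 14.2 CPM per kb, and the other neighbors in the order did not. Under flagellin the order of the means was the same and no neighbors overlapped, with ICAM1 at 7.85 ± 0.792 CPM per kb and VCAM1 at 0.209 ± 0.0848. Under ADP-heptose ICAM1 moved to first place at 79.9 ± 5.03 CPM per kb, before CD58 (19.1 ± 0.603), CD47 (15.1 ± 0.244), VCAM1 (2.82 ± 0.121) and ICAM5 (0.932 ± 0.144), with no overlap between neighbors. VCAM1 thus passed ICAM5 but stayed far below ICAM1. If reads on all exon bases that ICAM1 shares with other genes were not counted, its level over the remaining 2.83 kb would be 105 ± 6.59 CPM per kb.

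The 8 genes together summed to 137 to 153 CPM at rest, 165 to 179 CPM under flagellin and 453 to 489 CPM under ADP-heptose. CD47 made up 76.5% of that sum at rest and 26.1% under ADP-heptose, while ICAM1 went from 3.25% at rest to 17% under flagellin and 62.3% under ADP-heptose. VCAM1 went from 0.0245% to 0.743% and 3.6%. Most of the increase in the sum was ICAM1.

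Genes with related roles were counted in 4 lists, whose background is the percentages given above. Of 25 other surface ligands for leukocytes, 18 were tested, and under ADP-heptose 8 passed the adjusted p in the higher direction and 0 in the lower (1 at an unadjusted p below 0.05, 0 by DESeq2), and the median change was 0.28 on the log2 scale, beside 0.01 for all genes tested. The fractalkine gene CX3CL1, a chemokine tethered to the membrane, had the largest change (4.57, adjusted p = 3.7e-12). It was also the 1 gene of the list that passed under flagellin (1.39, adjusted p = 9.9e-07). The NKG2D ligand genes MICB and ULBP2 rose by 1.21 (adjusted p = 0.0191) and 0.58 (adjusted p = 0.0329). The adhesion gene MCAM rose by 0.57 (adjusted p = 0.00115) and the CD226 ligand genes NECTIN2 and PVR by 0.44 (adjusted p = 0.00204) and 0.43 (adjusted p = 0.00125). With plain library totals 5 genes were higher and 1 lower, with a median of 0.14, and without ADP-heptose replicate 3 there were 9 and 0, with a median of 0.16.

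The receptor list held 15 receptors and other binding partners of the members, among them the secreted THBS1. Of these, 8 were tested and 3, THBS1 included, were higher under ADP-heptose, 0 lower (0 at an unadjusted p below 0.05 and 0 by DESeq2), with a median of 0.04. The sign of that median was not stable: it was -0.10 with library totals, with 3 genes higher, and 0.12 without ADP-heptose replicate 3, with 4 higher. The αv integrin gene ITGAV rose by 1.31 (adjusted p = 3.4e-06) and THBS1, the thrombospondin-1 ligand of CD47, by 1.06 (adjusted p = 2.8e-05). ITGAM, the α chain of the ICAM1 receptor Mac-1, passed at a low level, 1.22, 0.744 and 0.508 CPM under ADP-heptose against 0, 0 and 0.161 CPM at rest (adjusted p = 0.0121). With 0, 0 and 6 counts at rest and 2, 2 and 8 under flagellin, ITGAM entered the test only through the ADP-heptose libraries. Its adjusted p and its place among the 3 are therefore not independent of its rise. Its partner chain ITGB2 had -0.23 (adjusted p = 0.721) and SIRPA, the CD47 receptor, -0.15 (adjusted p = 0.329). CD2, the CD58 receptor, had 0 counts in every library. Under flagellin 0 of the 8 passed in the edgeR fit and 0 in DESeq2, 1 had an unadjusted p below 0.05, and 1 passed without ADP-heptose replicate 3.

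Of 17 cytoskeletal anchors, sheddases and regulators that act on these proteins at the membrane, 16 were tested and 2 passed under ADP-heptose: EZR, the ezrin linker of ICAM tails to actin (0.29, adjusted p = 0.0101), and RHOG, a GTPase that acts below clustered ICAM1 (0.44, adjusted p = 0.0444). Neither direction was stable, since with library totals 0 genes were higher and 2 lower, and without ADP-heptose replicate 3 there were 7 and 1. Named outside the rule, after their values were seen, ADAM17, which sheds ICAM1 and VCAM1, had 0.13 (adjusted p = 0.611), QPCTL, which modifies CD47 for SIRPα binding, 0.14 (adjusted p = 0.461), and CMTM6, which holds CD58 at the surface, -0.10 (adjusted p = 0.432). Under flagellin 0 passed in edgeR, 0 had an unadjusted p below 0.05, and 0 passed in DESeq2.

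All 23 genes of the list of transcription factors of ICAM1 and VCAM1, which also holds inhibitors of NF-κB, were tested. Under ADP-heptose 18 were higher and 0 lower, with a median of 1.95, and under flagellin 8 were higher and 0 lower, with a median of 0.26. The NF-κB inhibitor genes TNFAIP3 and NFKBIA rose by 4.76 (adjusted p = 1.8e-10) and 3.94 (adjusted p = 3.7e-12) under ADP-heptose and by 1.27 (adjusted p = 2.9e-04) and 0.68 (adjusted p = 2.4e-04) under flagellin. IRF1, which acts at VCAM1, rose by 3.61 (adjusted p = 1.1e-10) and 0.53 (adjusted p = 0.0236). ATF3 rose by 4.02 under ADP-heptose (adjusted p = 9.5e-12) and had 0.38 under flagellin (adjusted p = 0.107). The NF-κB subunit gene NFKB2 rose by 3.24 (adjusted p = 1.7e-10) under ADP-heptose and by 1.08 (adjusted p = 2.6e-05) under flagellin. BCL3, a nuclear partner of NF-κB dimers, rose by 3.27 (adjusted p = 1.7e-10) and 0.58 (adjusted p = 0.00796). With library totals 18 were higher under ADP-heptose and 8 under flagellin, and without ADP-heptose replicate 3 there were 21 and 11.

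**Figure D4:**
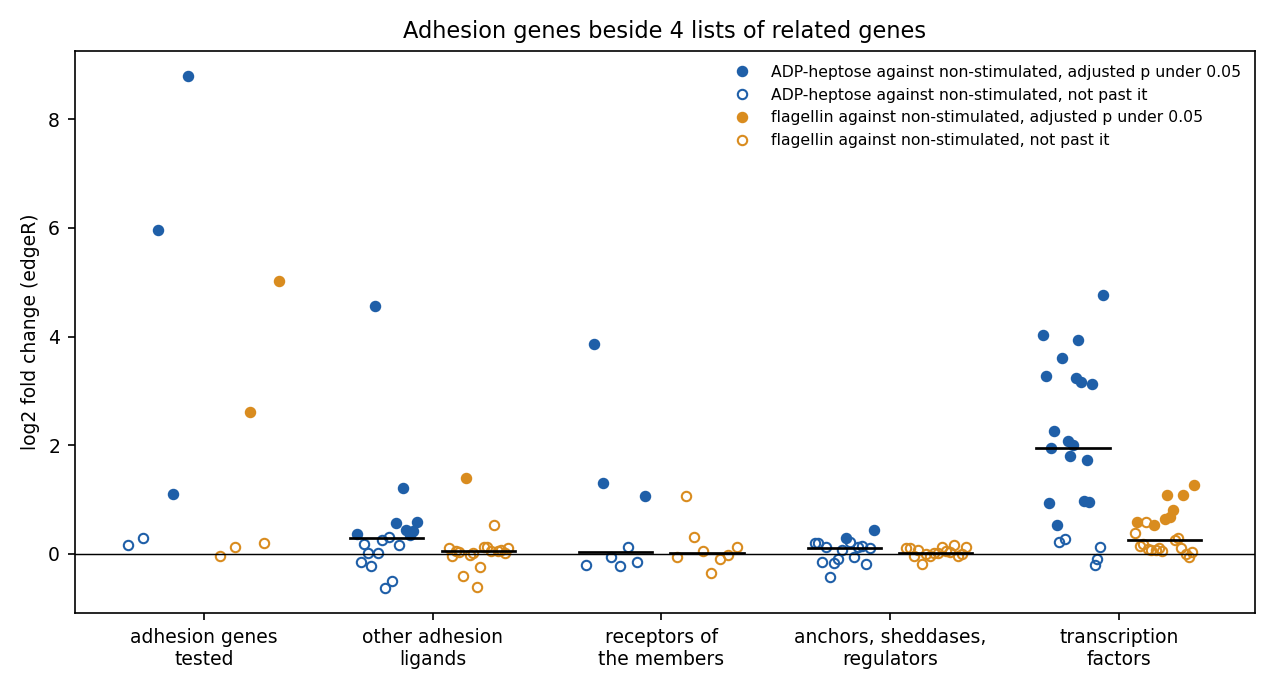
Log2 fold changes from the edgeR fit for the 5 adhesion genes and the tested genes of the 4 lists, for ADP-heptose and flagellin against non-stimulated cells. Filled points passed an adjusted p of 0.05 and bars are list medians. The list marked transcription factors, which also holds NF-κB inhibitors, has medians of 1.95 and 0.26, the receptor list of 0.04 and 0.02.

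The genes whose pattern over the 9 libraries lay nearest to each called member were found by the root-mean-square difference in log2 CPM, centred on the non-stimulated mean, over 17411 genes. For ICAM1 they were the neutrophil chemokine genes CXCL3 (0.35) and CXCL1 (0.48) and the synaptic gene UNC13A (0.53). For VCAM1 they were CCL20 (0.61), TNF (0.73) and CSF1 (0.77), a chemokine, a cytokine and a macrophage growth factor. The prior count of 2 in this measure compresses changes of genes near 0 at rest. In the edgeR fit, log2 changes under ADP-heptose and flagellin were 8.79 and 5.03 for VCAM1 and 8.01 and 4.74 for CCL20. They were 12.42 and 7.31 for TNF and 7.05 and 3.56 for CSF1. For ICAM5 they were the transcription factor gene FOXL1 (0.16), the lysyl oxidase gene LOXL4 (0.16) and ENSG00000279806 (0.18).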

How the data were processed

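Per the labels, poly(A)-enriched RNA of HT-29 cells was sequenced on an Illumina instrument. The authors deposited raw whole-number read counts per gene and library. The submitters' notes name HISAT2 and featureCounts. The build, the annotation, strand use and the treatment of shared reads are not given in the sources used here. Counts on shared exons may be lost or misplaced, which limits ICAM2, ICAM3 and ICAM4. Of 62710 identifiers, 232 appeared on several lines with the same counts and entered once. GENCODE 29 held 92.9% of them and gave positions and exon lengths, and RefSeq (GRCh38.p14) gave promoters.

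edgeR 4.0.16 in R 4.3.3 was fitted to all 9 libraries (TMM, filterByExpr, robust quasi-likelihood, Benjamini-Hochberg over 17412 genes). DESeq2 1.42.0 and other settings served as alternatives; those of the lists were chosen after seeing the data. The steps were tested on simulated data. With 3 against 3 an exact permutation test cannot go below p = 0.1. The study describes independent experiments but ties no replicate number to one, and not every pair of same-numbered libraries deviated together, so no replicate block was used. Intervals of ratios are 95% exact counting intervals and cover counting error only. They and the limits set for counts of 0 take each count as independent. The study sequenced read pairs, and whether both mates of a pair were counted is not given. If they were, these intervals are too narrow and these limits too low.

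The members, the 4 lists and the marker lists were chosen with earlier results of these data known. Named are the members, at most 6 genes of a list (largest called changes and direct receptors; 3 others are marked), genes within 100 kb, and the 3 nearest patterns of each called member over log2 CPM with a prior count of 2.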

Additional observations from a re-analysis of the deposited data

How the results depend on the processing

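Each of the 5 tested members was recomputed in 3 comparisons under 17 alternatives, which gave 255 values, and 246 kept their direction and their side of an adjusted p of 0.05. With the 2-fold threshold as well, 3 members were called higher under ADP-heptose, and 2 with library totals or without ADP-heptose replicate 2, where ICAM5 was at 0.98. ICAM1 ranged from 5.84 to 6.06 (log2) under ADP-heptose and from 2.55 to 2.71 under flagellin, and VCAM1 from 8.21 to 12.46 and from 4.45 to 8.71; all passed. Only 2 values turned in sign, and neither passed in any fit: ICAM5 under flagellin was -0.05 without flagellin replicate 1 (-0.05 to 0.35 over the left-out libraries), and CD47 under flagellin was 0.01 without non-stimulated replicate 2 (-0.07 to 0.01 over all alternatives). For ADP-heptose against flagellin, ICAM5 no longer passed the adjusted p in 4 alternatives, 3 of them left-out libraries, and had 0.91 (adjusted p = 0.0504) in a fit of only the 6 libraries compared, but passed both thresholds without flagellin replicate 1 or ADP-heptose replicate 3, which made 3 members called in place of 2. CD47 and CD58 passed the adjusted p in 3 further values, all without ADP-heptose replicate 3 and far below 2-fold; the cause was not tested. The fit with the replicate block called 3, 2 and 2 members in the 3 comparisons, as without it; correlations of same-numbered libraries ran from -0.45 to 0.29. Library totals moved the median of all genes to -0.13 under ADP-heptose. Genes called higher under flagellin numbered 37, and 60 with no filter on low counts. Depth limits ICAM2, ICAM3, ICAM4 and resting VCAM1.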

Other observations

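Around the members outside the chromosome 19 cluster, 7 of 23 other genes within 100 kb were tested. The endoribonuclease and unfolded protein sensor gene ERN1, near ICAM2, had 42.3 CPM at rest and 97.8 CPM under ADP-heptose (log2 fold change 1.21, edgeR adjusted p = 1.5e-04), with all 3 ADP-heptose libraries above rest, while ICAM2 itself had no more than 6 counts in any library. The unnamed gene ENSG00000279277, on the strand of CD47 and past its annotated end, had mean levels of 0.21 and 0.898 CPM (2.07, adjusted p = 0.0141). It was low, with 12, 2 and 10 counts at rest and 52, 54 and 30 under ADP-heptose. Here too all 3 ADP-heptose libraries were above rest, an order found for 15.4% of all genes tested. IGSF3, near CD58, had 0.25 (adjusted p = 0.258), and IFT57, near CD47, 0.22 (adjusted p = 0.0919).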
